A study of Homo sapiens with 4 samples.

Results

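The genes described here are 52 that encode parts of the DNA replication machinery and of mitosis, 28 for replication and 24 for mitosis, read here in the human melanoma line A2058, which is an established cell line. They were chosen as a list of gene symbols rather than by a measured value, and every array probe that the platform's annotation gives to 1 of those symbols was taken. That gave 76 probes, 42 for replication and 34 for mitosis, of 30112 probes that carry 1 gene symbol, and 52 of 20045 genes with such a probe. Messenger RNA was read on 4 Illumina bead arrays, 1 for each combination of 2 cell states and 2 oxygen conditions. The parental cells are the A2058 line itself. The cancer stem-like cells came from that line after 6 months under 100 uM carmustine, an alkylating drug that crosslinks DNA. Each state was cultured in normoxia and in hypoxia, and the labels state neither how low oxygen was nor for how long. Nor do they state whether the selected cells are 1 clone or a mixed population, and no genetic change is named. All cultures shared the same medium, with fetal bovine serum. Each group is a single array, so differences carry no replicate check and no test, and the values hold for these 4 cultures alone.

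Replication and mitosis draw on separate waves of transcription in the cell cycle. Before S phase, the origin recognition complex, CDC6 and CDT1 load the ring of MCM2 to MCM7 onto DNA, and geminin, the product of GMNN, holds CDT1 back so that each origin is used once. CDC45 and the GINS complex turn the ring into an active helicase, RFC loads the sliding clamp PCNA, and DNA polymerases copy the strands. E2F transcription factors drive these genes around the G1/S boundary. The mitosis genes peak later, in G2 and M. The DREAM complex and the factors MYBL2 and FOXM1 act on them through the cell cycle genes homology region, or CHR, often next to CCAAT boxes. The products of the mitosis genes include cyclin B with CDK1, the Aurora and Polo kinases, the centromere proteins that build the kinetochore, the spindle checkpoint, and CDC20 and UBE2C of the anaphase-promoting complex. In culture both sets mark dividing cells.

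Promoter sequences are shown because E2F sites and the CHR differ in number between the replication and mitosis genes. They are RefSeq promoters on build GRCh38.p14, printed 5′ to 3′ as the 200 bases before the annotated start. Capitals mark each match to 1 of the motifs searched, which are spelled out after the sequences. Of the replication genes, MCM7 (chr7:100101398-100101597, minus strand, 1 of 3 listed starts) and MCM3 (chr6:52284743-52284942, minus strand) are subunits of the helicase ring that differed in opposite directions between the cell states, and GMNN (chr6:24775213-24775412, plus strand, 1 of 2 listed starts) was lower in the stem-like cells. Of the mitosis genes, CCNB1 (chr5:69166950-69167149, plus strand) encodes cyclin B1, and CENPA (chr2:26785856-26786055, plus strand), CENPF (chr1:214602995-214603194, plus strand) and AURKB (chr17:8210226-8210425, minus strand, 1 of 2 listed starts) were among the members lower in the stem-like cells.
MCM7: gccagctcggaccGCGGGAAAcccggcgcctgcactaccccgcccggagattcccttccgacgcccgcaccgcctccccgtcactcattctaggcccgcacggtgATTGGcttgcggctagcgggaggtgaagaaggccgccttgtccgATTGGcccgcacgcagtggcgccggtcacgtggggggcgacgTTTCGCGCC
MCM3: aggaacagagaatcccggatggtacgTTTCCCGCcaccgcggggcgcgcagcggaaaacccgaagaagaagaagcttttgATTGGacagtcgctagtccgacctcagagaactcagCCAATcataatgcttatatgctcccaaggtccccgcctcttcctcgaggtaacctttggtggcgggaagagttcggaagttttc
GMNN: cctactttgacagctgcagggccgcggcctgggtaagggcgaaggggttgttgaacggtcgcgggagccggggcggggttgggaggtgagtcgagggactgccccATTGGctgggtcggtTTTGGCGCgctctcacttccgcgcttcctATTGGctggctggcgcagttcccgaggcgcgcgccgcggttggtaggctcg
CCNB1: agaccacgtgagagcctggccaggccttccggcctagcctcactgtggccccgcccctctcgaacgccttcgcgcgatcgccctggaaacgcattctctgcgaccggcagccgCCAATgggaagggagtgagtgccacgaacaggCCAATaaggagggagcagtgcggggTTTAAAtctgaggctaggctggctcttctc
CENPA: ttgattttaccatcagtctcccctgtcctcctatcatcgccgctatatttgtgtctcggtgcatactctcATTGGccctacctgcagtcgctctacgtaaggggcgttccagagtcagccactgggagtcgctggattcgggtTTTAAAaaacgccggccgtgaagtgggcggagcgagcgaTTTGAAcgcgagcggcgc
CENPF: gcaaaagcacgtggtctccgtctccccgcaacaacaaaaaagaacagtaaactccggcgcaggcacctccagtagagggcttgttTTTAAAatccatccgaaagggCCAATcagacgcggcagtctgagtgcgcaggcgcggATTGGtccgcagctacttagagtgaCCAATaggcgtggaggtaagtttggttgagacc
AURKB: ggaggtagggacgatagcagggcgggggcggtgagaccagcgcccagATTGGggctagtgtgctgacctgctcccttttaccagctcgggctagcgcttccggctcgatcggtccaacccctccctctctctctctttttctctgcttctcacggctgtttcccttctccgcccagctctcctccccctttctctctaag
The CHR was searched as TTTGAA and TTTAAA, of which the second reads the same on both strands. The CCAAT box was searched as CCAAT. E2F sites were searched as TTTGGCGC, TTTCGCGC, TTTCCCGC, TTTGCCGC and TTCGCGCC, of which TTTCGCGC and TTCGCGCC can overlap, as they do in MCM7. Both strands were read, so ATTGG is a CCAAT box on the other strand. In CCNB1, TTTAAA begins 30 bases before the start, with CCAAT 55 and 87 bases before it. In CENPA, TTTGAA begins 18 and TTTAAA 57 bases before the start. In CENPF, TTTAAA begins 115 bases before the start, with CCAAT boxes at 94, 58 and 33 bases. In GMNN, TTTGGCGC begins 80 bases before the start and CCAAT boxes begin at 95 and 51 bases. In MCM3, TTTCCCGC begins 174 bases before the start. The printed window of AURKB holds 1 CCAAT box and neither of the other motifs.

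A promoter of 300 bases, 250 before and 50 after the start, was found for 25 of 28 replication genes and 18 of 24 mitosis genes. MCM4, MCM5, GINS4, AURKA, TTK, BIRC5, UBE2C, FOXM1 and TPX2 were not among them. A CHR match stood in 14 of 18 mitosis promoters (77.8%) and 3 of 25 replication promoters (12.0%), against 27.9% of all 27305 genes with a promoter. The 3 replication genes were CDC45, RRM1 and RRM2. An E2F match stood in 16 of 25 replication promoters (64.0%) and 2 of 18 mitosis promoters (11.1%), those of CDK1 and CENPA, against 4.79% of all genes. The E2F match of CENPA lies outside the stretch printed. CCAAT boxes were common in both, at 68.0% and 83.3%, against 39.7% of all genes. Of the mitosis promoters 12 held both a CHR match and a CCAAT box. The same split was seen in other genes of each process, with a CHR match in 74.6% of 59 other mitosis genes and 17.9% of 39 other replication genes, and an E2F match in 11.9% and 43.6% respectively. These are matches of letters in a window, and the series did not measure binding.

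**Figure D1:**
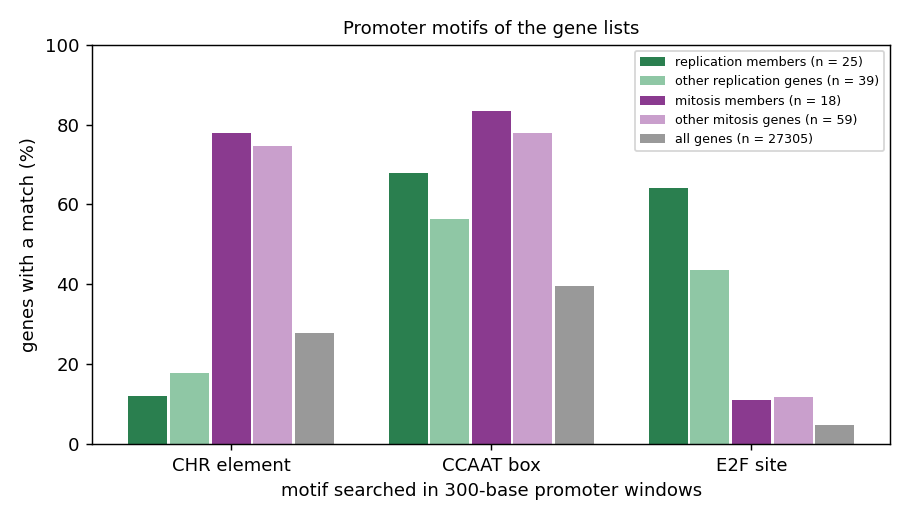
Share of genes (%, y axis) whose 300-base promoter windows hold at least 1 match to each motif (x axis), for the 25 replication and 18 mitosis members with a promoter, other genes of each process, and all 27305 genes with a promoter. CHR matches stand in 77.8% of the mitosis members and 12.0% of the replication members, and E2F matches in 11.1% and 64.0%.

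On each array 16432 to 16945 of 47315 probes were detected at a detection p-value under 0.01, which covered 9991 to 10277 genes. Levels are log2 signals after background correction and quantile normalization, so each is relative to the other genes on its array. The lowest detected levels were 5.22 to 5.29, and levels near these are compressed toward each other. All 5 hypoxia-responsive genes measured were higher in hypoxia in both states, among them ENO2, a glycolytic enzyme, at 6.05, 9.25, 7.72 and 9.34 in parental normoxia, parental hypoxia, stem-like normoxia and stem-like hypoxia. The melanocyte genes PMEL, TYR, MLANA, MITF and SOX10 were all detected in the parental cells. In the stem-like cells TYR and MLANA were not detected. PMEL, at 12.77 and 12.94 in the parental cells, was detected near the floor in the stem-like cells, at 5.74 and 5.28. MITF was at 9.58, 9.97, 7.34 and 6.88, and SOX10 at 11.04, 11.12, 10.26 and 9.94, in the same order of arrays. S100B was detected on no array. Of 4 leukocyte markers PTPRC and CD3E were detected on no array, nor were 3 of 4 keratinocyte, 3 of 4 endothelial and 3 of 6 fibroblast markers. Other markers on these lists were clearly detected. In the same order of arrays, the leukocyte marker CD68 was at 9.39, 9.46, 9.51 and 9.52. The keratinocyte marker KRT10 was at 10.51, 10.44, 10.37 and 10.15, and the fibroblast marker LUM at 9.40, 9.65, 7.75 and 7.39. CD14, a leukocyte marker, was at 5.52 in parental normoxia and not detected in parental hypoxia, and stood at 7.83 and 8.11 in the stem-like cells. The summed raw signal of the 6 melanocyte genes was 14400 and 15700 on the parental arrays and 1860 and 1660 on the stem-like arrays, and that of the 6 fibroblast markers 1460 and 1620 against 863 and 830. The part of these differences in the results was not tested. In place of replicates, the scatter between probes of the same gene gives a scale of technical error, which covers probe and background error on the same RNA but not differences between cultures. The SD of log2 folds between probes of 1 gene was 0.20 and 0.23 for hypoxia in the parental and stem-like cells, and 0.30 and 0.28 for the cell state in normoxia and hypoxia, over 2408, 2321, 2234 and 2268 genes.

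Of the 52 genes, 50 were detected on all 4 arrays. GINS1 was detected on the 2 normoxia arrays only. MYBL2, a G2/M transcription factor, was detected on no array, with detection p-values of 0.0948, 0.143, 0.074 and 0.19, so it has no fold. In bulk RNA, fewer cells in a phase of the cycle and less RNA per cell cannot be told apart.

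In hypoxia every measured member other than GINS4 and GINS1 had a log2 fold between -0.40 and 0.52 in both cell states, on its brightest probe. GINS1 was detected on neither hypoxia array, so its hypoxia folds are bounds. In the parental cells the median log2 fold of the 28 replication genes was -0.09, with 18 of 28 below 0, and that of the 23 measured mitosis genes was 0.02, with 9 of 23 below 0. In the stem-like cells the medians were -0.02 and 0.03, with 15 of 28 and 11 of 23 below 0. Under scaling by the median of each array, 20 of 28 replication genes were below 0 in the stem-like cells, as were 56.9% of all genes. Hypoxia lay below normoxia in both states in 12 of 27 replication genes (44.4%) and 3 of 23 mitosis genes (13.0%), against 30.1% of all genes, and above it in 8 (29.6%) and 6 (26.1%), against 29.4%. Over all genes the medians were 0.00 to 2 decimals, and 50.3% and 49.6% of genes were below 0. In the parental cells 1 replication gene, GINS4, was lower by at least 2-fold, which is also the only one past 1.5-fold, and none was higher. Of all 10442 genes measured there, 0.0766% were lower and 0.383% higher by 2-fold, and 1.05% and 1.83% by 1.5-fold. In the stem-like cells no member passed 1.5-fold in either direction, where 1.87% of all 10595 genes were lower and 2.94% higher by 1.5-fold, and 0.189% and 0.491% by 2-fold. This count rests on the detection rule. With a detection p-value under 0.05, or with no detection filter, 1 replication gene was lower by 1.5-fold there.

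The cell states differed by more, and most mitosis genes lay on the same side of 0. In the stem-like cells 20 of 23 mitosis genes were below the parental level in normoxia, with a median log2 fold of -0.25 and an interquartile range of -0.44 to -0.14. In hypoxia 18 of 23 were below it, with a median of -0.29 and an interquartile range of -0.47 to -0.10. These medians are about the size of the SDs between probes, 0.30 in normoxia and 0.28 in hypoxia. Folds of that size in single genes have no settled sign. The replication genes were divided, with 13 of 28 below 0 in normoxia (median 0.03) and 14 of 27 in hypoxia (median 0.00). All genes had medians of -0.01 in both comparisons, with 51.1% and 50.5% below 0, and interquartile ranges of -0.36 to 0.34 and -0.36 to 0.35.
Few members passed the rules of size. In normoxia 1 replication gene was higher and 1 lower by 2-fold, and 1 mitosis gene lower, against 6.67% of all 10758 genes higher and 5.87% lower. At 1.5-fold, 2 replication genes were higher and 2 lower, and 1 mitosis gene was higher and 4 lower, against 14.1% and 14.6%. In hypoxia 1 replication gene was higher by 2-fold and no member lower, against 7.24% and 5.97% of 11000 genes. At 1.5-fold, 3 replication genes were higher and 2 lower, and 1 mitosis gene was higher and 5 lower, against 14.8% and 15.1%. In lists this short these counts are not far from the background shares, and nothing is read from them.

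**Figure D2:**
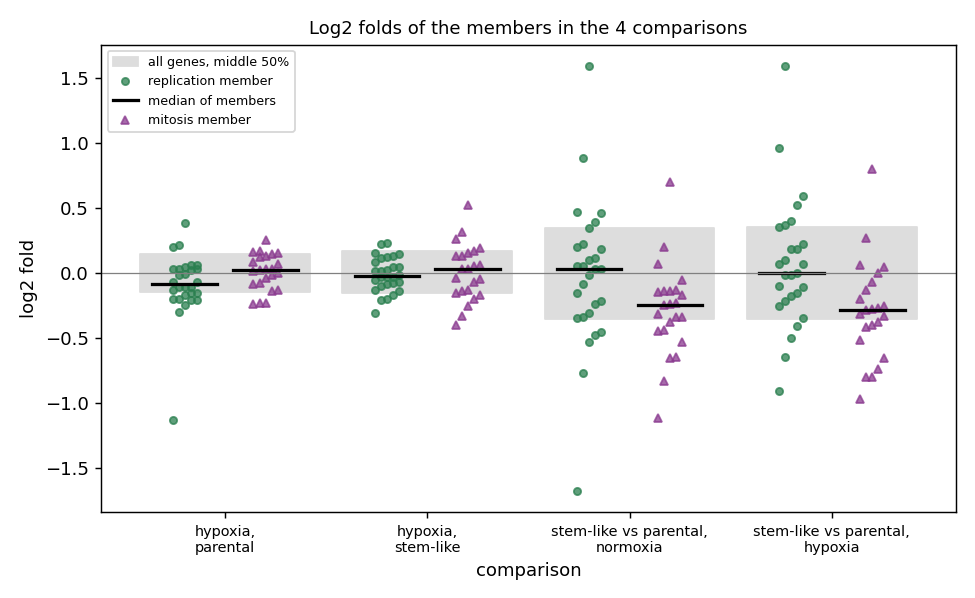
Log2 folds (y axis) of the replication (circles) and mitosis (triangles) members in the 4 comparisons (x axis), with 1 array on each side of a fold. Black lines are medians and grey boxes the middle 50% of all genes; the mitosis medians are -0.25 and -0.29 for the cell states and 0.02 and 0.03 for hypoxia.

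Levels of each gene are given below on the log2 scale in the order parental normoxia, parental hypoxia, stem-like normoxia and stem-like hypoxia. The genes that license origins went in different directions. ORC1, the ATPase of the origin recognition complex, was at 6.79, 6.63, 6.70 and 6.61, and the cell states overlapped. ORC6, another subunit of that complex, gave 14.21, 14.25, 14.24 and 14.25 on its brighter probe and 8.40, 8.14, 7.57 and 7.41 on its other probe. The brighter probe showed no difference between states, while the other was lower in both stem-like arrays, with log2 folds of -0.83 and -0.72, so ORC6 has no settled direction. CDC6, which loads the MCM ring, was close to the detection floor at 5.52, 5.90, 5.85 and 5.71 and its arrays overlapped. CDT1, its partner in loading, was at 9.63, 9.50, 9.15 and 9.09. Both stem-like arrays lay below both parental arrays, by 1.4-fold in normoxia and 1.33-fold in hypoxia. GMNN, the inhibitor of CDT1, was at 9.67, 9.60, 8.90 and 8.70. It was lower in the stem-like cells by 1.71-fold in normoxia and 1.87-fold in hypoxia, log2 folds of -0.77 and -0.91 against SDs between probes of 0.30 and 0.28. GMNN thus had the lowest log2 fold of the replication genes in hypoxia and the lowest but one in normoxia.

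The 6 subunits of the MCM ring, which sit in 1 complex in equal number, were not shifted together between the cell states. MCM2 was at 7.55, 7.76, 9.13 and 9.35, with both stem-like arrays far above both parental arrays. It was 3.0-fold higher in the stem-like cells in normoxia and 3.02-fold higher in hypoxia, the highest fold of the 52 genes in each. MCM5 was at 8.03, 8.09, 8.91 and 9.04, which is 1.84-fold and 1.94-fold higher in the stem-like cells. MCM7 was at 12.28, 12.34, 12.75 and 12.86, and was 1.38-fold and 1.43-fold higher. Of its 2 further probes, the one detected on all arrays also had positive log2 folds, at 0.39 and 0.28. MCM4 was at 10.75, 10.64, 10.85 and 11.01, with both stem-like arrays slightly above. Its other probe had log2 folds of -0.33 in normoxia and 0.40 in hypoxia, so its direction in normoxia depends on the probe. MCM6 was at 10.99, 11.03, 10.98 and 11.21, and the states overlapped. MCM3 went the other way, at 11.65, 11.68, 11.13 and 11.17, and was 1.44-fold and 1.42-fold lower in the stem-like cells. Its other probe was lower too, at log2 folds of -0.30 and -0.10. The hypoxia log2 folds of the 6 subunits lay between -0.11, for MCM4 in the parental cells, and 0.23, for MCM6 in the stem-like cells, on the brightest probes. The other MCM4 probe had -0.18 in the parental and 0.55 in the stem-like cells, and the further MCM7 probe detected on all arrays had -0.08 and -0.19.

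The factors that activate the helicase differed among themselves as well. MCM10, which helps to start unwinding, was at 8.51, 8.26, 8.69 and 8.66, with both stem-like arrays above. GINS2 was at 10.34, 10.13, 10.44 and 10.31, and GINS3 at 8.81, 8.66, 9.27 and 9.24. GINS3 was higher in the stem-like cells, by 1.37-fold in normoxia and 1.5-fold in hypoxia, while the states overlapped for GINS2. GINS4, another subunit of the same complex, was at 7.95, 6.82, 6.27 and 6.16. The parental normoxia array stood above the other three. GINS4 was 2.19-fold lower in hypoxia in the parental cells, and 3.20-fold and 1.57-fold lower in the stem-like cells in normoxia and hypoxia. Its raw signals were 360, 220, 162 and 163, against a median of 259 to 301 over the detected probes of an array, and the size rests on the background step: without background correction the 3 log2 folds were -0.72, -0.99 and -0.32. GINS4 has 1 probe, and no other probe bears on it. GINS1 was detected at 5.33 in parental normoxia and 5.53 in stem-like normoxia and on neither hypoxia array. By the floor rule it was at least 1.05-fold and at least 1.24-fold lower in hypoxia. Its raw signals of 134, 132, 135 and 117 lie near the detection cut, and the parental pair is nearly flat. The parental bound, a log2 fold of -0.07, is within the SD between probes of 0.20. CDC45, which completes the active helicase, had log2 folds between -0.11 and 0.07 in the 4 comparisons.

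The sliding clamp and 2 of the 4 loader subunits among the members were lower in both stem-like arrays by small amounts. PCNA was at 10.92, 10.80, 10.57 and 10.58, and was 1.27-fold and 1.17-fold lower. Its 2 other probes did not settle the direction: 1 had log2 folds of 0.24 and -0.18, and 1 was detected on no array. RFC4, a subunit of the clamp loader, was at 10.29, 10.32, 9.83 and 9.97, and was 1.37-fold and 1.28-fold lower, with log2 folds of -0.11 and -0.28 on its other probe. RFC2, another subunit, was at 7.64, 7.84, 8.03 and 7.83, where the states overlapped, but its other probe was higher in the stem-like cells at 0.91 and 0.73. RFC3 was below the parental arrays in both stem-like arrays and RFC5 above, with log2 folds of -0.24 and -0.10, and 0.22 and 0.35. RFC1, a loader subunit outside the members, was 1.56-fold and 1.31-fold lower. POLE2, a subunit of the leading-strand polymerase, was at 8.94, 8.73, 8.64 and 8.47, which is 1.24-fold and 1.20-fold lower. POLA1, the catalytic subunit of the priming polymerase, and CHAF1A, a chaperone that puts histones on new DNA, were lower by 1.08-fold to 1.16-fold. Of the enzymes that make nucleotides, RRM2, the regulated subunit of ribonucleotide reductase, was at 8.15, 7.85, 7.80 and 7.92. TYMS, thymidylate synthase, was at 11.76, 11.55, 11.78 and 11.77. For both, the parental hypoxia array was below parental normoxia, by 1.23-fold and 1.16-fold, log2 folds of -0.30 and -0.21 against an SD between probes of 0.20. RRM1, the larger subunit of the reductase, had log2 folds from -0.02 to 0.10.

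**Figure D3:**
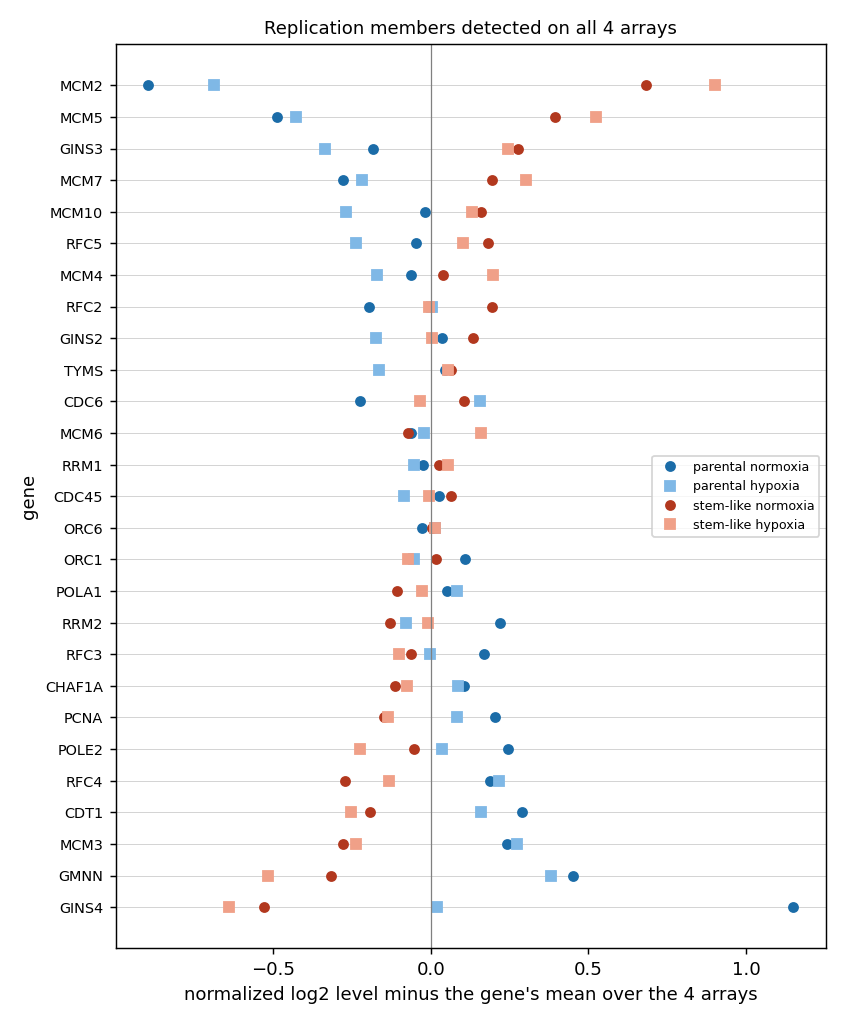
Normalized log2 level minus the gene's own mean over the 4 arrays (x axis) for the 27 replication members detected on all 4 arrays (y axis), with 1 point per array; circles are normoxia and squares hypoxia, blue parental and red stem-like. Genes run from MCM2, whose stem-like arrays are 3.0-fold and 3.02-fold higher, down to GMNN and GINS4, and 8 genes have overlapping states.

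Among the mitosis genes, 3 common marks of dividing cells did not separate the cell states. MKI67, which coats mitotic chromosomes, was dim at 6.28, 6.05, 5.94 and 6.11, where differences are compressed. Between the states its log2 fold was -0.34 in normoxia, against an SD between probes of 0.30, and 0.06 in hypoxia. TOP2A, the topoisomerase that untangles chromosomes, was at 10.74, 10.99, 10.94 and 11.26, higher in hypoxia in both states by 1.19-fold and 1.24-fold. CCNA2, cyclin A2, was at 9.59, 9.61, 9.66 and 9.34. For all 3 genes the cell states overlapped. CCNB1, cyclin B1, was at 8.90, 8.98, 8.76 and 8.60, and CCNB2, cyclin B2, at 10.37, 10.49, 10.21 and 10.09. CDK1, the kinase that both cyclins activate, was at 10.39, 10.42, 10.14 and 10.00. All 3 were lower in both stem-like arrays than in both parental arrays, by 1.10-fold to 1.19-fold in normoxia and 1.30-fold to 1.34-fold in hypoxia. These sizes were within the SD between probes in normoxia and above it in hypoxia.

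The Aurora kinases were lower in the stem-like cells by more. AURKB, the kinase of the chromosomal passenger complex, was at 9.82, 9.79, 8.69 and 8.83. It was 2.18-fold lower in normoxia, the only mitosis gene past 2-fold, and 1.95-fold lower in hypoxia. AURKA, which acts at the spindle poles, was at 10.47, 10.61, 9.80 and 9.86. It was 1.58-fold and 1.67-fold lower, and its other probe gave log2 folds of -0.76 and -0.73. TPX2, which activates AURKA on the spindle, was at 9.33, 9.30, 8.89 and 9.04, lower by 1.36-fold and 1.19-fold. PLK1, the Polo kinase, was at 7.57, 7.58, 7.51 and 7.31, with log2 folds of -0.06 and -0.27.
BIRC5, or survivin, is a partner of AURKB in the passenger complex and also an inhibitor of apoptosis. It was at 9.61, 9.46, 10.31 and 10.26, and was 1.63-fold and 1.74-fold higher in the stem-like cells. Its other probe, at log2 folds of 0.89 and 0.70, gave the same direction. BIRC5 was the only one of the 23 mitosis genes with both stem-like arrays above both parental arrays, while AURKB had the lowest folds.

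Of the kinetochore, CENPA, CENPF and CENPE are members. CENPA, the histone variant that marks the centromere, was at 9.54, 9.30, 8.90 and 8.50, lower by 1.56-fold and 1.74-fold, with log2 folds of -0.60 and -0.84 on its other probe. CENPF, a large kinetochore protein, was at 9.75, 9.91, 8.92 and 9.11, lower by 1.78-fold and 1.74-fold. CENPE, a kinetochore motor, was at 8.91, 9.07, 8.67 and 8.41, lower by 1.18-fold and 1.57-fold, with log2 folds of -0.60 and -0.38 on its other probe. Both stem-like arrays lay below both parental arrays for all 3. CENPA also had the lowest log2 folds of the mitosis genes in hypoxia, at -0.24 in the parental and -0.40 in the stem-like cells, though its other probe gave 0.00 in the parental cells and -0.24 in the stem-like cells. Of the spindle checkpoint, BUB1 was at 8.83, 9.00, 8.45 and 8.48, lower by 1.30-fold and 1.43-fold. TTK, the MPS1 kinase, was at 8.99, 8.91, 8.65 and 8.92, and BUB1B had log2 folds of -0.32 and -0.20. TTK was lower in stem-like normoxia only, and its states overlapped.

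Of the motor proteins among the members, KIF11, which pushes the spindle poles apart, was at 8.62, 8.39, 8.40 and 8.33, and KIF23, which acts in cytokinesis, at 8.93, 8.80, 8.79 and 8.85. The states overlapped for both, and for KIF11 the other probe had the opposite direction to the brighter one in parental hypoxia, at 0.31 against -0.23. Of the anaphase-promoting complex and its substrates, CDC20 had log2 folds of -0.13 and -0.33 between the states, UBE2C -0.45 and -0.32, and PTTG1, or securin, -0.17 and -0.29. The other UBE2C probe gave 0.13 and -0.63 between the states, and -0.60 for hypoxia in the stem-like cells against 0.03 on the brighter one, so the direction in normoxia depends on the probe. The other PTTG1 probe gave -0.38 and -0.51. PTTG1 has near-identical copies, so its signal is uncertain. FOXM1, the transcription factor of the G2/M genes, was at 8.35, 8.47, 7.82 and 8.34. The stem-like normoxia array stood below the other three, at 1.44-fold under parental normoxia, and the level in stem-like hypoxia was 1.44-fold above that in stem-like normoxia. The other FOXM1 probe had the same pattern, with log2 folds of -0.56 and -0.10 between the states and 0.32 for hypoxia in the stem-like cells. That hypoxia fold of FOXM1, 0.52 on the brighter probe, was the highest of the 23 mitosis genes, whose median there was 0.03.

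**Figure D4:**
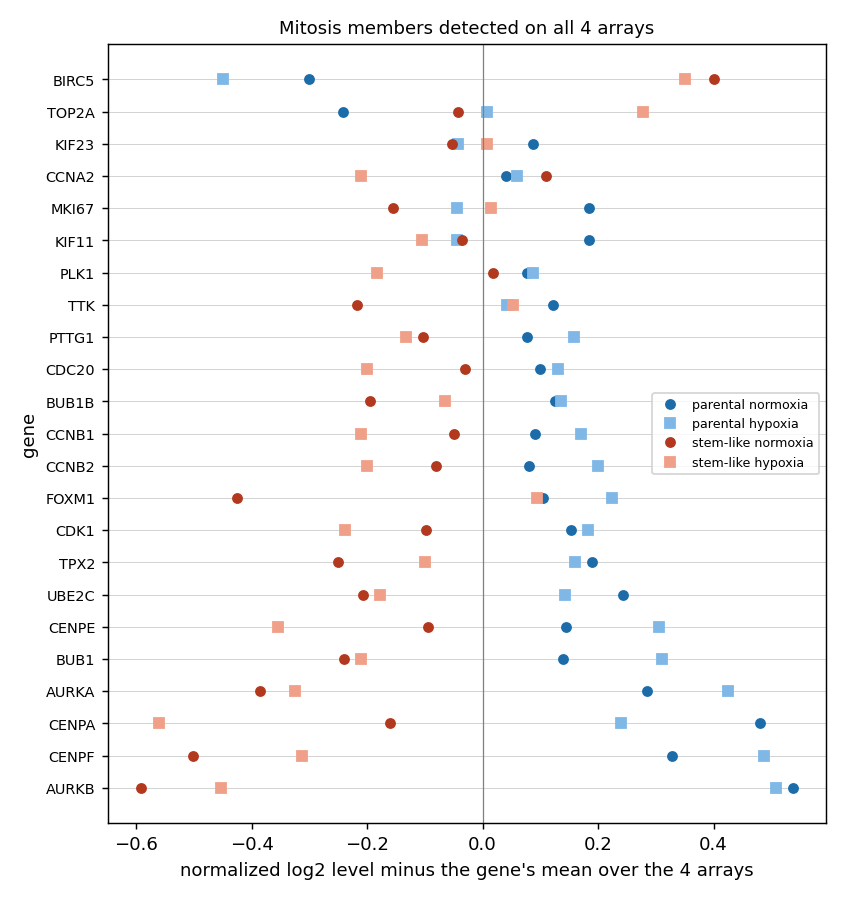
Normalized log2 level minus the gene's own mean over the 4 arrays (x axis) for the 23 mitosis members detected on all 4 arrays (y axis), with 1 point per array; circles are normoxia and squares hypoxia, blue parental and red stem-like. In 16 genes both blue points lie right of both red points, and in BIRC5 alone the order is turned.

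The order of the 4 arrays shows the difference between the lists. Both parental arrays lay above both stem-like arrays in 16 of 23 mitosis genes (69.6%) and in 10 of 27 replication genes (37.0%), against 3355 of 9006 genes detected on all arrays (37.3%). The reverse order held in 1 mitosis gene and in 9 replication genes (33.3%), against 33.9% of all genes. The shares of the replication genes were thus close to those of all genes, and those of the mitosis genes were further away. The order takes no account of size. PLK1, for example, is counted with log2 folds of -0.06 and -0.27, within the SDs between probes of 0.30 and 0.28. The states overlapped in MKI67, TOP2A, CCNA2, TTK, KIF11 and KIF23. The highest of the 4 levels was on a parental array in 20 of the 23 mitosis genes, 8 in normoxia and 12 in hypoxia, against 50.7% of all genes. The lowest was on a stem-like array in 21, 11 in normoxia and 10 in hypoxia, against 52.4% of all genes. The 2 comparisons of the states share no array, and all 11 members that passed 1.5-fold in either comparison had the same sign in both, as did 96.8% of all 3205 genes past that size. Those were MCM2, MCM5, GINS3, GINS4, GMNN, AURKA, AURKB, CENPA, CENPE, CENPF and BIRC5.
Probes of a gene give a further check on the same RNA. In the 18 members with 2 or more probes detected on all arrays, the probes had the same sign in 13 for the states in normoxia and 16 in hypoxia. For hypoxia they had it in 5 in the parental and 9 in the stem-like cells. The direction of a hypoxia fold therefore depended on the probe more often than that of a state fold in these members. The quartiles of the members' hypoxia log2 folds lay between -0.18 and 0.14, inside the SDs between probes of 0.20 and 0.23. Folds that small have no settled sign. The share of genes with the same sign on all probes was not computed over all genes.

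**Figure D5:**
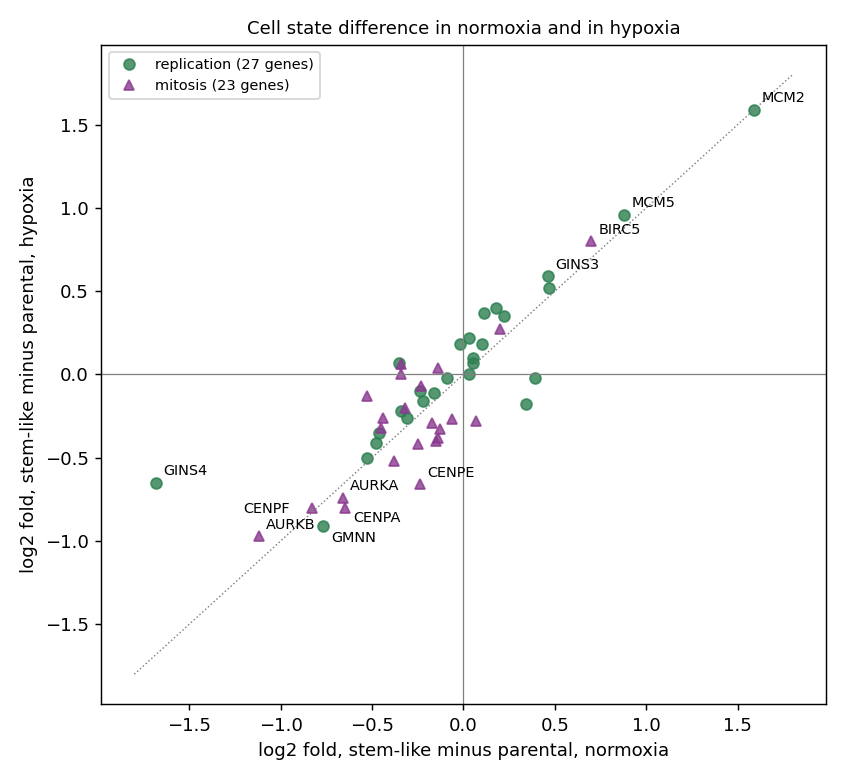
Log2 fold of stem-like over parental cells in normoxia (x axis) against the same in hypoxia (y axis) for 27 replication (circles) and 23 mitosis (triangles) members, with 1 array on each side of a fold; genes past 1.5-fold in either are named and the dotted line marks equal folds. MCM2 lies at 1.59 on both axes, AURKB at -1.12 and -0.97, and GINS4 furthest from the line at -1.68 and -0.65.

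The hypoxia response was also compared between the states, as the log2 fold in the stem-like cells minus that in the parental cells. It was above 0 in 23 of 27 replication genes with a median of 0.07, and in 12 of 23 mitosis genes with a median of 0.03. For all 9006 genes the median was 0.00, with 49.9% below 0. Under median scaling, 18 of 27 replication genes were above 0 and 9 below, where 55.9% of all genes were below 0. Past 2-fold upwards was 1 replication gene, GINS4 at 1.03, and no member was past it downwards, against 0.322% and 0.344% of all genes. The GINS4 value follows from its single high level in parental normoxia. The next largest differences were CDC6 at -0.52, CENPE at -0.42, RRM2 at 0.42, RFC2 at -0.41, and MKI67 and FOXM1 at 0.40. These are values of the brightest probes, and CDC6 and MKI67 lie near the detection floor. The SD between probes for this difference was 0.31. Without background correction and in the authors' table the CDC6 value was -0.19, so its rank rests on the background step. The other CENPE probe had hypoxia log2 folds of -0.20 in the parental and 0.03 in the stem-like cells, a difference of opposite sign. Those of the other RFC2 probe, 0.10 and -0.08, and the other FOXM1 probe, -0.14 and 0.32, kept the sign.

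Other genes of the same processes were taken from longer lists. Of 65 other mitosis genes measured, 48 were below the parental level in normoxia (median -0.27) and 50 in hypoxia (median -0.30). Of all genes 51.1% and 50.5% were below it. At 1.5-fold, 17 and 16 were lower, against 14.6% and 15.1% of all genes, and 1 was higher in each, against 14.1% and 14.8%. Both parental arrays lay above both stem-like arrays in 41 of 64 (64.1%), and the reverse held in 8, against 37.3% and 33.9% of all genes. Not all were lower: the kinetochore genes ZWILCH and CENPM had log2 folds of 0.47 and 0.30, and 0.38 and 0.12, NDC80 0.22 and -0.02, and the motor KIF18A 0.45 and 0.58. These 4 were chosen after their values were seen. KIFC1, a spindle motor, was 2.37-fold and 2.59-fold lower, and ESPL1, or separase, which cuts cohesin, 2.73-fold and 1.90-fold lower. KPNA2, an importin, was 1.74-fold and 2.54-fold lower. CENPI, of the inner kinetochore, was at 6.58 and 6.73 in the parental cells and not detected in the stem-like cells, at least 2.44-fold and at least 2.85-fold lower. PIMREG was the gene on that list that was higher by 1.5-fold, at 1.81-fold and 2.07-fold.
Of other replication genes, 27 of 43 were below 0 in normoxia (median -0.12) and 19 of 42 in hypoxia (median 0.01). The shares of all genes below 0 were 51.1% and 50.5%. At 1.5-fold, 5 were lower and 1 higher in normoxia, against 14.6% and 14.1% of all genes. In hypoxia 3 were lower and 1 higher, against 15.1% and 14.8%. Both parental arrays lay above both stem-like arrays in 18 of 41 (43.9%), against 37.3% of all genes. CDK2, a kinase that promotes the firing of origins, was at 11.85, 12.05, 10.87 and 10.69, which is 1.97-fold and 2.56-fold lower in the stem-like cells. DTL, which targets CDT1 for destruction, was 2.22-fold and 1.70-fold lower. ORC5 was 1.31-fold and 1.67-fold higher, and POLD1, the catalytic subunit of polymerase delta, 1.51-fold and 1.44-fold higher. In hypoxia no gene of this list passed 1.5-fold in either state. Below 0 were 30 of 42 in the parental cells and 18 of 42 in the stem-like cells, against 50.3% and 49.6% of all genes.

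The regulators of these genes differed by member. E2F3, an activator, was at 10.40, 10.27, 9.40 and 9.51, which is 2.0-fold and 1.69-fold lower in the stem-like cells. E2F5, a repressor that joins DREAM-like complexes, was at 7.41, 7.58, 8.60 and 8.63, which is 2.28-fold and 2.06-fold higher. E2F7, an atypical repressor, was 1.94-fold and 1.4-fold lower. MYBL1, a relative of MYBL2, was at 6.96, 6.93, 6.09 and 6.22, lower by 1.82-fold and 1.63-fold, and LIN9, of the MuvB core that DREAM and MYBL2 share, was lower by 1.72-fold and 1.31-fold. E2F1 was dim and higher in hypoxia in both states, by 1.38-fold and 1.67-fold, while E2F2 was lower in both, by 1.38-fold and 1.4-fold. E2F4 was higher in the stem-like cells by 1.34-fold and 1.54-fold. RB1 was not detected in parental normoxia, and at 6.04 in parental hypoxia it was at least 1.72-fold higher there. Of 17 measured regulators 12 were below 0 in normoxia and 11 in hypoxia between the states, against 51.1% and 50.5% of all genes. At 1.5-fold, 5 were lower and 1 higher in normoxia, against 14.6% and 14.1% of all genes. In hypoxia 3 were lower and 2 higher, against 15.1% and 14.8%.

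Within the mitosis list, the 14 genes with a CHR match, all of them measured, had a median log2 fold between the states of -0.20 in normoxia, with 13 of 14 below 0, and -0.31 in hypoxia, with 11 of 14 below 0. The 3 measured genes with a promoter but no CHR match, CCNA2, AURKB and BUB1, had a median of -0.38 in normoxia, with 2 of 3 below 0. In hypoxia their median was -0.52, with 3 of 3 below 0. In the whole mitosis list 20 of 23 and 18 of 23 were below 0, and of all genes 51.1% and 50.5%. Nothing is read from the CHR match. Within the replication list, the 16 genes with an E2F match had a median of -0.05 in normoxia, and the 15 of them measured in hypoxia had -0.10. The 9 without had 0.05 and 0.07.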

How the data were processed

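RNA of 4 cultures was extracted with Trizol and labelled with biotin for Illumina bead arrays, per the labels' protocols, and the sample labels give the groups. For every probe and array the deposited non-normalized table gives a linear intensity averaged over beads and a detection p-value, per the file headers. The authors also deposited an intensity table that, judged from its values, was quantile-normalized. Scanner software and the authors' own normalization are not stated in a label or header. The number of arrays, 1 per group, limits the precision.

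In the first table the probe identifiers had slipped against the values. There were 47315 identifiers for 47323 value lines, and 98.0% of the identifiers stood on a line that was not theirs. Each line was given the probe whose values in the authors' table it matched along 1 ordered path. This brought the Spearman rho between the tables on the first array from 0.015 to 1.00, which the matching itself fixes. Levels of 2 probes of 1 gene, over 6691 genes, had a rho of 0.025 before and 0.449 after. The identifiers after this step come from the authors' table, so the second value rests on that table and is not a separate check. The 8 lines that matched no probe were not used, and the step was decided after the values were seen.

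Signals were corrected for background with normexp and an offset of 16, quantile-normalized and taken to log2 with limma 3.58.1 in R 4.3.3, which was tested on simulated data. A probe was detected at a detection p-value under 0.01. An undetected level was raised to the lowest detected one of its array where it was lower, and such a fold is a bound. The brightest probe of a gene, by its mean over the arrays, stands for it. Calls at 2-fold and 1.5-fold are rules of size. The offset draws folds of dim genes toward 1.

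Genes were named through the platform annotation, in which 30112 probes have 1 symbol, 8 several and 17195 none. Of the first kind 30073 had a gene identifier in RefSeq, and all 52 symbols were current. Only the RefSeq promoters carry coordinates, since the array's build is not named. Near-identical copies were considered for PTTG1 alone.

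The 52 members, the other gene lists and the rules were chosen with earlier results of these data known. Given on every array were a panel of 22 members whatever their values and, per comparison, the 4 highest and 4 lowest of each list, 41 in all; the other 11 are given by their folds. Alternatives were no background correction, median scaling, the authors' table, a detection p-value under 0.05, no detection filter, the mean of detected probes and each other probe.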

Additional observations from a re-analysis of the deposited data

How the results depend on the processing

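No paired analysis was possible because each group holds 1 array, and for the same reason no replicate could be left out. Over the main and 6 alternative settings, the replication median ran from -0.11 to -0.07 for hypoxia in parental and -0.08 to -0.02 in stem-like cells, from -0.03 to 0.06 and -0.01 to 0.07 for the states in normoxia and hypoxia, and from 0.04 to 0.07 for the difference of responses. The mitosis median for the cell states ran from -0.28 to -0.19 in normoxia and from -0.33 to -0.28 in hypoxia, for hypoxia from 0.01 to 0.02 in parental and -0.05 to 0.03 in stem-like cells, and from -0.05 to 0.03 for the difference. Counts at 2-fold rested on GINS4 and AURKB: without background correction and in the authors' table, the count of replication genes lower in parental hypoxia, of replication genes lower in stem-like normoxia, of mitosis genes lower in stem-like normoxia and of replication genes with a higher hypoxia response in stem-like cells each fell from 1 to 0. Without background correction the GINS4 difference of responses was 0.68 and that of CDC6 -0.19, and the MCM2 log2 folds were 1.22 and 1.27. At 1.5-fold in place of 2-fold the counts in normoxia were 2 higher and 2 lower for replication and 1 and 4 for mitosis, and in hypoxia 3 and 2, and 1 and 5. Folds of the 41 members given on every array moved by more than the SD between probes in 8 of 200 values without background correction, in 8 with the authors' table, in 6 with the mean of detected probes, in 0 with median scaling, a detection p-value under 0.05 or no detection filter, and in 26 of 66 with another probe. No fold of at least 2 changed its sign. Median scaling moved the median of all genes by 0.09 in normoxia and 0.05 in hypoxia between the states. Dim members such as CDC6, MKI67 and GINS1 lie near the floor, where differences are compressed.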
